A study of Mus musculus with 6 samples.

Results

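Nuclear receptors are transcription factors that bind DNA through zinc fingers, and many of them are switched on by small lipid-soluble ligands such as retinoic acid, thyroid hormone, fatty acids, oxysterols, bile acids, vitamin D and steroid hormones. Many of those without a steroid ligand, but not all, bind DNA as a dimer with a retinoid X receptor (RXR). The steroid receptors are instead held by heat shock protein chaperones until hormone arrives. In the lung, retinoic acid receptors are known for their part in forming alveoli, the glucocorticoid receptor for late fetal maturation and surfactant, and PPAR-gamma for lipid handling in the alveolus. NR4A1 (Nur77) belongs to the same superfamily, and the question here is whether the messenger RNAs of the other receptors differed when it was overexpressed. The receptors were chosen by symbol: 38 genes of the 34745 in the deposited table, covering the thyroid hormone, retinoic acid, PPAR, REV-ERB, ROR, LXR, FXR, vitamin D, PXR and CAR, HNF4, testicular, TLX and PNR, COUP-TF, oestrogen, 3-ketosteroid, NR5A, GCNF, and DAX1 and SHP families. All 38 were found, and 24 had enough counts for a test.

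The cells were MLE-12, a mouse lung epithelial line immortalised by the SV40 large T antigen. The NR4A1 group held 3 libraries from cells given an NR4A1 overexpression plasmid, in which a cytomegalovirus promoter drives NR4A1, and the control group 3 from cells given the vector, so plasmid and transfection reagent are shared by both groups. Nothing in the labels says that the libraries of a group came from separate cultures, so the p-values measure the spread between these samples, which may be technical. In bulk RNA, fewer cells with a transcript and less of it per cell cannot be told apart.

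Total counts lay between 15019038 and 17574340 per library, so that 3 counts, the smallest amount taken as measurable, correspond to 0.171 to 0.200 CPM (counts scaled by library total), a limit that covers counting error only. The CPM values below also include the TMM factors, which lay between 0.986 and 1.011. NR4A1 replicate 2 stood apart from the other libraries: 350 genes at 1 CPM or more were at least 10 times higher there than in any other library, against 10 in vector replicate 1, 1 in vector replicate 2 and 0 in the rest. The summed CPM of 12 fibroblast markers was 1741 in that library and 919 to 1043 in the others (10 of 12 highest there), that of 12 endothelial markers 177 against 40.8 to 56.4 (11 of 12), and that of 10 smooth muscle and pericyte markers 112 against 5.66 to 7.70 (9 of 10). Of the markers of the labelled cell type, Krt8 (2767 to 3835 counts), Sftpc (1013 to 1389) and Nkx2-1 (946 to 1445) were present in every library, but Sftpa1 was at 0 throughout, Sftpd was at 0 to 2 counts, Epcam was at 2 to 5 counts outside vector replicate 1 (22 counts), and Krt18 was at 2 to 21 counts outside NR4A1 replicate 2 (164 counts). The summed CPM of the 14 lung epithelium markers was 885 to 1015 with NR4A1 and 1015 to 1136 with vector. Whether other cells contributed to the receptor values was not tested.

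The overexpressed gene separated the groups fully. Nr4a1 was at 50660, 60093 and 68555 counts in NR4A1 replicates 1 to 3 and at 428, 510 and 463 counts in the vector libraries. On the per-length FPKM scale its level was 1465 ± 120 with NR4A1 and 11.04 ± 1.24 with vector (mean ± SD, n = 3 each). In the vector libraries 5 of the 38 receptors had a higher mean FPKM than Nr4a1. The summed FPKM of the 38 receptors was 179.5 ± 5.51 with NR4A1 and 176.5 ± 4.63 with vector, so that Nr4a1 alone stood at 7.41 to 8.83 times the sum of the other receptors in the overexpressing libraries and at 0.0577 to 0.0716 times in the controls.

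Promoter sequences are shown for 3 receptors on chromosome 14 whose values are described below: Rarb, which had the highest mean level over the 6 libraries and the smallest adjusted p among the receptors, Thrb, which had the largest difference, and Nr1d2, which was next in mean level and stood above Rarb in the vector group mean. RefSeq windows of 300 bases (250 before and 50 after the start of transcription, GRCm38.p6) matched 34 of the 38 receptors and gave 48 windows. Each stretch is printed 5′ to 3′ on the strand of its gene, and the capitals mark the receptor element that was searched for.
Rarb (chr14:16575483-16575559, minus strand): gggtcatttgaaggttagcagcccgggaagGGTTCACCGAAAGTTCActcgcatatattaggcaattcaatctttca
Thrb (chr14:17660746-17660811, plus strand): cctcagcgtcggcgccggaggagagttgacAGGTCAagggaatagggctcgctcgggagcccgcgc
Nr1d2 (chr14:18239148-18239213, minus strand): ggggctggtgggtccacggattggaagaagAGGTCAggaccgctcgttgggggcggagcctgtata
The capitals in Rarb span 17 bases from position -53 and form a DR5, a direct repeat of the receptor hexamer with 5 bases between the copies, which is the textbook form of a retinoic acid response element. It was the only DR5 among the 48 receptor windows, and 0.0974% of all 32851 windows held one. The hexamer AGGTCA on its own, at position -184 in Thrb and -77 in Nr1d2, stood on either strand in 10 of the 48 windows (20.8%) and in 16.3% of all windows. The longer element AAAGGTCA, which contains that hexamer and which NR4A1 is known to bind as a monomer, stood in 0 of the 48 windows and in 1.51% of all windows. The E-box CACGTG stood in 6 of the 48 windows (12.5%) and in 7.15% of all windows. These counts describe letters in the windows and not binding.

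The receptors spanned a wide range of levels. Averaged over the 6 libraries, 9 of the 38 had 10 FPKM or more, 10 had 1 to 10 FPKM, 5 more were tested at under 1 FPKM, and 14 were too low for a test. Retinoic acid receptors made up the largest family sum in the vector libraries (44.9 FPKM), followed by the REV-ERB repressors (30.03 FPKM), the COUP-TF orphan receptors (25.8 FPKM), the PPARs (18.6 FPKM) and the thyroid hormone receptors (16.3 FPKM). The 10 highest receptors held 82.0% of the summed FPKM of the controls.

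At the head of the order, by the mean of all 6 libraries, stood Rarb, a retinoic acid receptor, at 30.8 ± 1.996 FPKM with NR4A1 and 23.96 ± 1.5 with vector. Nr1d2 (REV-ERB-beta, a repressor in the circadian clock) followed at 27.6 ± 5.50 and 25.2 ± 1.35 FPKM. Its ranges ran from 22.3 to 33.3 with NR4A1 and from 23.7 to 26.3 with vector, so that Rarb and Nr1d2 did not differ beyond their spread in the controls. Thra, the main thyroid hormone receptor of many tissues, came next at 13.4 ± 1.39 and 16.1 ± 0.832 FPKM. Below it, Nr2f2 (COUP-TFII) was at 13.1 ± 1.58 and 13.2 ± 0.202 FPKM, and Pparg, the fatty acid and lipid-storage receptor, at 12.3 ± 0.587 and 13.4 ± 0.465 FPKM. Nr2f2 and Pparg lay within each other's spread, and Thra lay above both in every vector library.

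The next 5 receptors were close together at about 10 FPKM. Nr2c2 (TR4) was at 11.4 ± 2.03 FPKM with NR4A1 and 10.8 ± 1.28 with vector, and Nr2f6 at 11.4 ± 2.45 and 10.7 ± 1.03. Rarg, the gamma form of the retinoic acid receptor, was at 10.3 ± 1.08 and 10.4 ± 0.624 FPKM, and Nr1h2 (LXR-beta) at 9.94 ± 0.828 and 10.4 ± 0.512. Rara was at 8.78 ± 0.295 FPKM with NR4A1 and 10.6 ± 0.776 with vector. In the controls the order of these 5 was not resolved beyond the spread. The glucocorticoid receptor Nr3c1 came eleventh, at 7.22 ± 2.39 and 7.38 ± 2.002 FPKM.

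**Figure D1:**
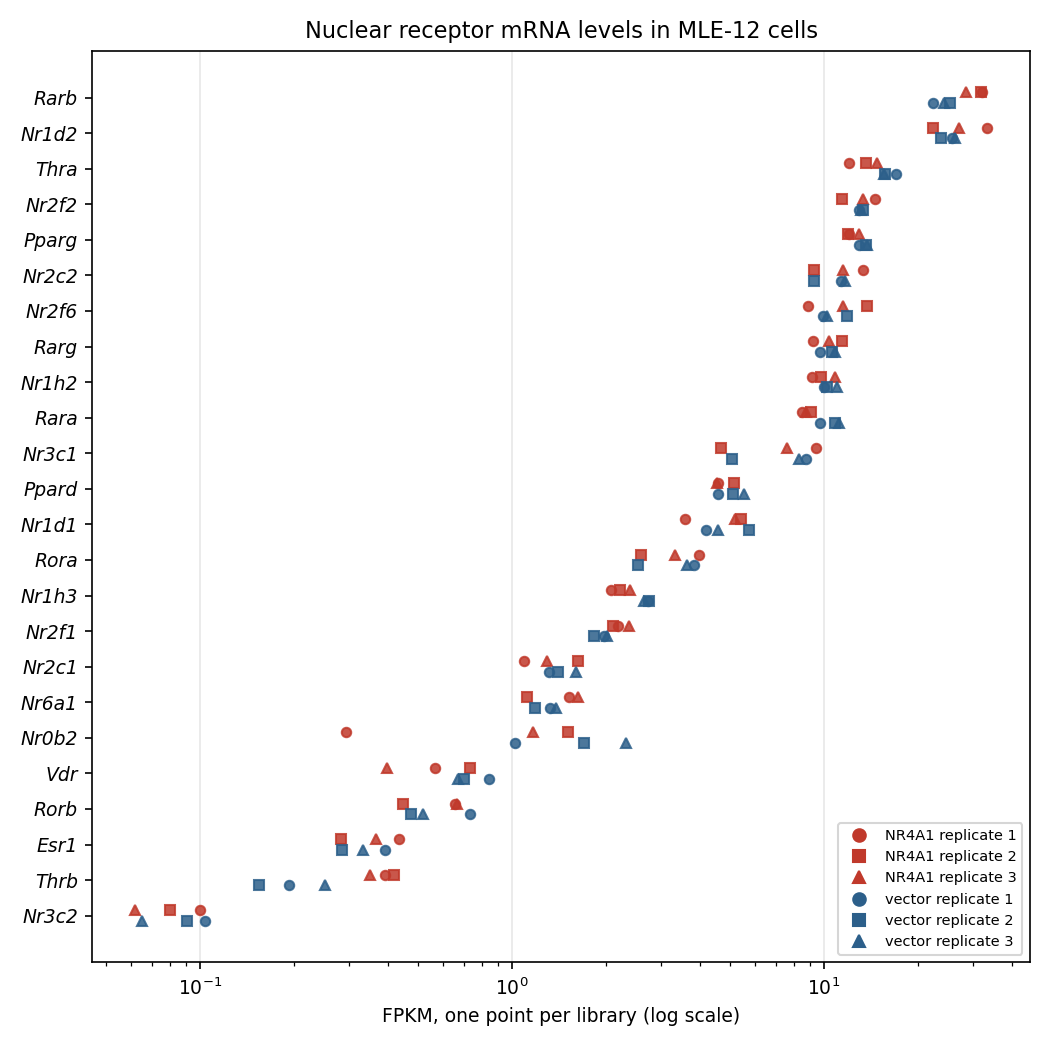
FPKM (log scale) of the 24 tested nuclear receptors in each library, 1 point per library, with NR4A1 libraries in red and vector libraries in blue. Rarb and Nr1d2 lead, and Nr3c2 is lowest, at 0.0808 FPKM with NR4A1 and 0.0867 with vector on average.

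No receptor passed the test of edgeR (quasi-likelihood, Benjamini-Hochberg adjusted p under 0.05 and at least 2-fold). Of the 24 tested receptors 0 were called higher, where 0.17% of all 12941 tested genes were, and 0 were called lower, where 0% of all tested genes were. The smallest adjusted p among the receptors was 0.3135, for Rarb. At an unadjusted p under 0.05, 2 receptors were higher (background 4.02% of all genes) and 3 were lower (background 2.44%). All 3 NR4A1 libraries lay above all 3 vector libraries for 3 receptors (background 6.69%) and below them for 3 (background 6.22%). DESeq2 also called 0 receptors, although for Rarb its adjusted p was 0.0409 at a difference that stayed under 2-fold.

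The differences were small in both directions: 12 log2 fold changes lay above 0 and 12 below. Their median was -0.00081 (0.0078 over all tested genes), and the median size without regard to sign was 0.11 on the log2 scale (0.10 over all tested genes). For 22 of the 24 receptors (91.7%) the 95% interval of the fold change lay wholly inside a 2-fold difference either way, as it did for 85.5% of all tested genes. The exceptions were Thrb and Nr0b2, whose intervals reached beyond 2-fold.

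**Figure D2:**
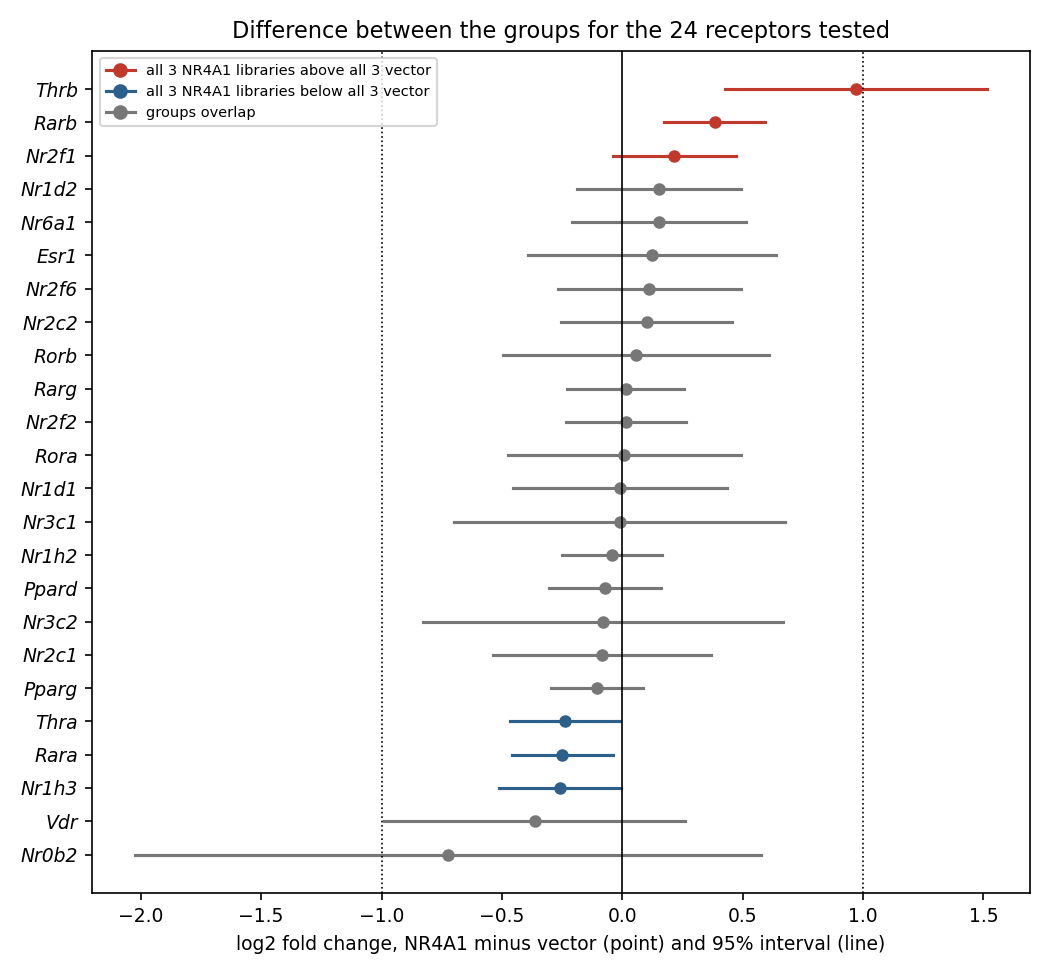
Log2 fold change (NR4A1 minus vector, points) with its 95% interval (lines) for the 24 tested receptors, coloured by whether the 3 libraries of each group overlapped. Dotted lines mark a 2-fold difference, and only the intervals of Thrb (0.43 to 1.52) and Nr0b2 (-2.02 to 0.58) cross one.

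The 6 receptors with separated groups included both of the genes encoding thyroid hormone receptors and 2 of the 3 encoding retinoic acid receptors, with the beta genes higher and the alpha genes lower in the NR4A1 libraries. Rarb was at 99.0, 97.1 and 86.6 CPM with NR4A1 and at 67.7, 76.1 and 73.0 CPM with vector. Every NR4A1 library lay above every vector library, and the log2 fold change was 0.38 (SE 0.090, 95% interval 0.17 to 0.59, or 1.13- to 1.51-fold; unadjusted p = 0.0035). Thrb was far lower, at 85, 102 and 88 counts with NR4A1 and at 48, 37 and 64 with vector, which is 5.75, 6.08 and 5.08 CPM against 2.78, 2.21 and 3.63 CPM. Its groups were also separate, with a log2 fold change of 0.97 (SE 0.23), 1.96-fold with a 95% interval of 1.34 to 2.86. The unadjusted p of Thrb was 0.0039 and the adjusted p 0.3301 (edgeR quasi-likelihood test, Benjamini-Hochberg), short of the threshold.

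Thra was at 70.9, 80.1 and 86.0 CPM with NR4A1 and at 99.0, 90.2 and 90.2 CPM with vector. No NR4A1 library reached the level of a vector library, and the log2 fold change was -0.24 (SE 0.097, 95% interval -0.47 to -0.0097, adjusted p = 0.7444 by edgeR's quasi-likelihood test). Rara was at 49.2, 52.2 and 49.8 CPM with NR4A1 and at 55.1, 61.3 and 63.3 with vector. Again the groups did not touch, with a log2 fold change of -0.25 (SE 0.089, adjusted p = 0.6727 in the same test). Rarg lay between 52.9 and 64.8 CPM with NR4A1 and between 54.4 and 61.0 with vector, and its groups overlapped (log2 fold change 0.014, 95% interval -0.23 to 0.26).

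Within a library, the CPM of Rarb relative to that of Rara was 2.01, 1.86 and 1.74 with NR4A1 and 1.23, 1.24 and 1.15 with vector. The CPM of Thrb relative to that of Thra was 0.0811, 0.0759 and 0.0591 with NR4A1 and 0.0281, 0.0245 and 0.0402 with vector. Both ratios were higher in each NR4A1 library than in any vector library. That outcome was fixed by the single values, with the beta genes higher and the alpha genes lower in every NR4A1 library. It therefore adds no support to them. These ratios were formed after the single values were known and carry no test.

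The beta and alpha genes lie in 2 matching neighbourhoods of the genome, each with a REV-ERB gene beside a thyroid hormone receptor gene and a retinoic acid receptor gene. On chromosome 14 (GRCm38) they are Rarb (16430842 to 16575472), Thrb (17660960 to 18038088) and Nr1d2 (18204054 to 18239127), and their log2 fold changes were 0.38, 0.97 and 0.15. On chromosome 11 they are Thra (98740638 to 98769006), Nr1d1 (98767932 to 98775333) and Rara (98927818 to 98974942), and their log2 fold changes were -0.24, -0.0098 and -0.25. Both REV-ERB genes had overlapping groups. No tested gene besides these receptors lies in the chromosome 14 interval by the deposited coordinates, though Top2b reaches into Rarb in GENCODE M21. The chromosome 11 interval holds 5 others (Msl1, Casc3, Rapgefl1, Wipf2 and Cdc6), whose log2 fold changes were all below 0. Their median was -0.059 and their lowest value -0.24, and 1 of them had separate groups, lower with NR4A1. Of all 12941 tested genes, 6228 had a log2 fold change below 0 and 6.22% had separate groups with NR4A1 lower.

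**Figure D3:**
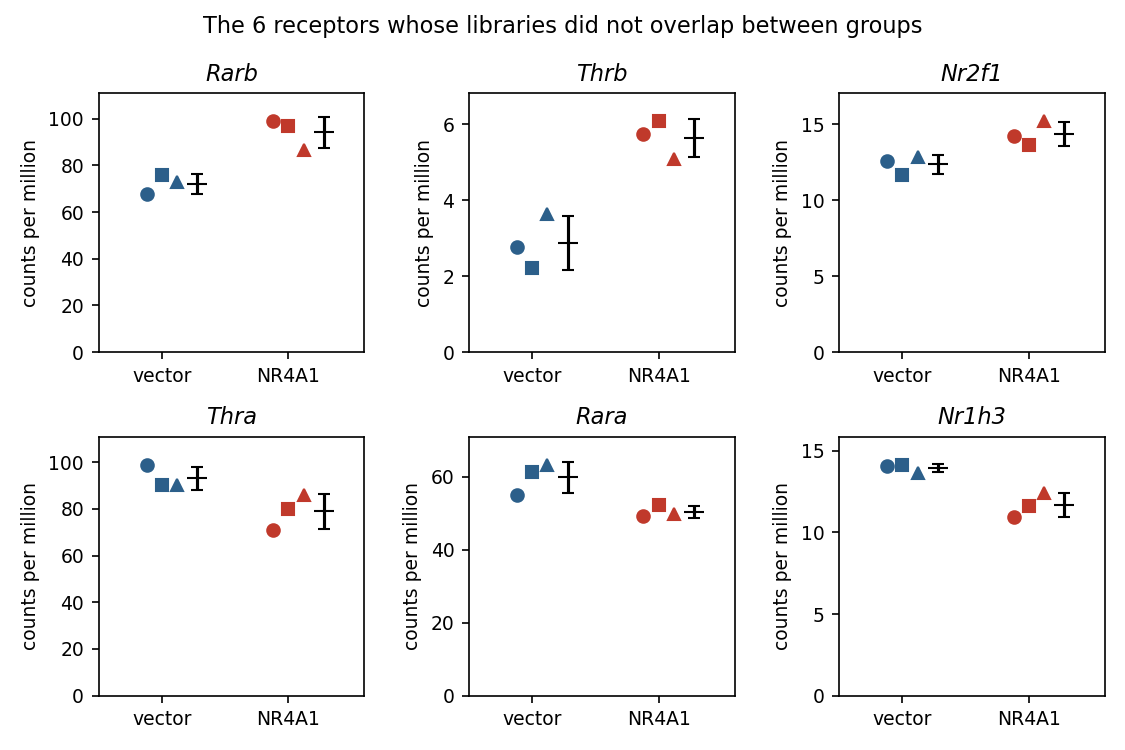
CPM in each library for the 6 receptors whose groups did not overlap, with circles, squares and triangles for replicates 1, 2 and 3 and with the mean and SD of each group in black beside its points. Rarb, Thrb and Nr2f1 are higher in all 3 NR4A1 libraries, and Thra, Rara and Nr1h3 are lower.

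Several of these genes share exonic bases with a gene on the opposite strand in GENCODE M21, and the strand setting of the counting is not given in the sources used here. Rarb shares 34.1% of its 5265 exonic bases with Top2b, a DNA topoisomerase, which was at 4638 to 5346 counts per library. Top2b itself had overlapping groups and a log2 fold change of 0.079 (SE 0.11). Thra shares 5.70% of its exonic bases with Nr1d1, and Nr1d1 8.55% of its own with Thra. Nr2c2 shares 30.7% with Mrps25, a mitochondrial ribosomal protein gene, and Nr2f6 shares 54.4% with Ocel1. Nr1i3 shares 74.9% with Tomm40l, which was at 257 to 383 counts per library, yet Nr1i3 was at 0 counts in all 6. How reads in shared bases were assigned is not known for Rarb, Thra, Nr1d1, Nr2c2 and Nr2f6. Of stretches of 50 bases in their transcripts, Nr1d2 shares 5.13% and Nr2c2 5.39% with a transcript of another gene.

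The remaining separated receptors were Nr1h3 and Nr2f1. Nr1h3 (LXR-alpha), an oxysterol sensor that drives lipid synthesis and cholesterol export, was at 10.95, 11.6 and 12.4 CPM with NR4A1 and at 14.1, 14.1 and 13.7 with vector. All NR4A1 libraries lay below all vector libraries (log2 fold change -0.26, SE 0.11, unadjusted p = 0.0475, adjusted p = 0.7612 by edgeR). Its paralogue Nr1h2 overlapped between the groups, at 81.1 to 94.3 CPM and 86.8 to 94.99 CPM (log2 fold change -0.043, 95% interval -0.25 to 0.16). Nr2f1 (COUP-TFI) was at 14.2, 13.6 and 15.2 CPM with NR4A1 and at 12.6, 11.6 and 12.9 with vector. Its libraries did not overlap, but its unadjusted p was 0.0859 (log2 fold change 0.22, SE 0.11). Its relatives Nr2f2 (log2 fold change 0.014) and Nr2f6 (0.11) overlapped between the groups, with Nr2f2 lowest in NR4A1 replicate 2 (61.7 CPM against 69.2 to 79.2 elsewhere).

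Among the fatty acid receptors, Pparg was at 50.5, 49.98 and 53.96 CPM with NR4A1 and at 53.4, 55.9 and 56.9 with vector. The highest NR4A1 library lay above the lowest vector library, and the log2 fold change was -0.11 (95% interval -0.30 to 0.085). Ppard lay at 29.5 to 33.5 and 29.5 to 35.5 CPM (log2 fold change -0.071). Ppara, the PPAR of fatty acid oxidation in liver, was at 5 counts or fewer in every library and was not tested.

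Of the clock receptors, the repressor Nr1d1 (REV-ERB-alpha) was at 12.7, 19.2 and 18.1 CPM with NR4A1 and at 14.6, 19.9 and 16.0 with vector, and Nr1d2 at 198, 132 and 159 CPM with NR4A1 and at 149, 137 and 153 with vector. Neither separated the groups. Their opponents at the same DNA elements, the activators Rora and Rorb, had log2 fold changes of 0.0081 (SE 0.21) and 0.057 (SE 0.23). For Rora the values were 60.0, 39.0 and 49.6 CPM with NR4A1 and 56.8, 37.2 and 53.7 CPM with vector. In both groups the library numbered 2 was the lowest.

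The steroid receptors also overlapped between the groups. The glucocorticoid receptor Nr3c1 was at 2363, 1322 and 2209 counts with NR4A1 and at 2517, 1410 and 2452 with vector (log2 fold change -0.011, 95% interval -0.70 to 0.68). The libraries numbered 2 were far below the others in each group, which gives this well-counted gene one of the wider intervals among the receptors. Esr1, an oestrogen receptor, was at 124, 91 and 121 counts with NR4A1 and at 128, 90 and 111 with vector (log2 fold change 0.12, SE 0.22). The mineralocorticoid receptor Nr3c2 was at 21, 19 and 15 counts with NR4A1 and at 25, 21 and 16 with vector (log2 fold change -0.082, SE 0.32).

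The vitamin D receptor Vdr was at 52, 76 and 42 counts with NR4A1 and at 89, 71 and 72 with vector, with overlapping groups and a log2 fold change of -0.36 (95% interval -0.99 to 0.26). Nr0b2 (SHP), a receptor without a DNA-binding domain that represses other receptors, had the widest interval of the 24. It was at 5, 29 and 23 counts with NR4A1 and at 20, 32 and 46 with vector, and its FPKM was 0.993 ± 0.629 with NR4A1 and 1.68 ± 0.644 with vector (log2 fold change -0.72, SE 0.55). NR4A1 replicate 1 was the lowest library, and the groups overlapped. The orphan receptors Nr2c1 (TR2), Nr2c2 (TR4) and Nr6a1 (GCNF) had log2 fold changes of -0.084, 0.10 and 0.15, each with overlapping groups.

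Some receptors varied more between the libraries of a group than between the groups. In both groups the library numbered 2 was the lowest of the 3 for 8 of the 24 tested receptors (33.3%): Nr3c1, Rora, Rorb, Esr1, Nr2c2, Nr6a1, Nr1d2 and Nr2f1. The same held for 22.6% of all tested genes. Against the mean of replicates 1 and 3, replicate 2 of Nr3c1 stood at -0.87 on the log2 scale with NR4A1 and at -0.76 with vector. For Rora the values were -0.49 and -0.57, for Rorb -0.56 and -0.41, and for Esr1 -0.50 and -0.35. Between the groups these log2 ratios correlated at 0.621 across the 24 receptors, but at -0.0542 across all tested genes. Only Nr1d1 (0.31 and 0.38) and Nr2f6 (0.44 and 0.22) were highest in the library numbered 2 of both groups, which was the case for 22.4% of all tested genes.

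These receptors were longer on the whole, though Nr2f1 (5093 bases) and Nr1d2 (5409 bases) were shorter than several of the others. The 8 receptors lowest in both libraries numbered 2 had a median exonic length of 10950 bases (5093 to 14935), and the other 16 a median of 4486 bases (1132 to 8625). Over all tested genes with a length in GENCODE M21, the share lowest in both libraries numbered 2 was 6.51% in the fifth with the shortest genes (up to 2367 bases), 16.2% in the fifth in the middle and 51.2% in the fifth with the longest (7517 bases or more). Of the 7 tested receptors of that length, 6 showed it. Whether RNA integrity, library preparation or the cultures differed in step with length was not tested. Without both libraries numbered 2 the log2 fold change of Nr3c1 was 0.014 and that of Rora -0.012, close to 0 as before. That of Nr1d2 was 0.24 (0.15 with all libraries) and that of Nr6a1 0.24 (0.15), and no receptor was called.

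**Figure D4:**
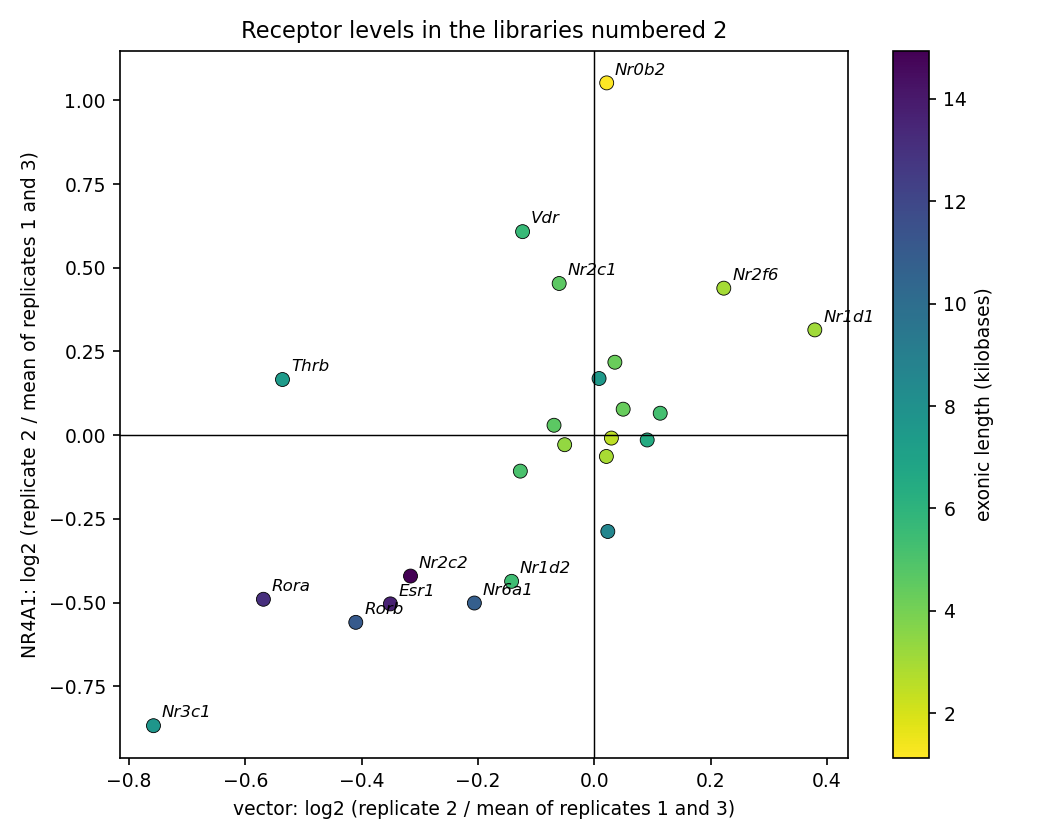
Log2 ratio of replicate 2 to the mean of replicates 1 and 3 in the vector group (horizontal) and in the NR4A1 group (vertical) for the 24 tested receptors, coloured by exonic length in kilobases. Long receptors such as Nr3c1, Rora, Rorb, Esr1 and Nr2c2 sit at the lower left, below 0 in both groups.

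The 14 receptors without a test were Ppara, Nr1h4 (FXR), Nr1h5, Nr1i2 (PXR), Nr1i3 (CAR), Hnf4a, Hnf4g, Nr2e1, Nr2e3, Esr2, Pgr, Nr5a1, Nr5a2 and Nr0b1. Most are known for their roles in liver, gut, gonad, adrenal, brain or retina. Nr1i3 was at 0 counts in all 6 libraries, and 12 of the 14 had at most 5 counts in any library. The other 2 were seen almost wholly in a single library each. Hnf4a, a liver and gut regulator, was at 0, 2 and 1 counts with NR4A1 and at 22, 1 and 0 with vector. The 22 counts were in vector replicate 1, which also held 22 counts of Epcam and 11 of Cldn7. Only 3 of the 14 lung epithelium markers were highest in that library, however. Their summed CPM was 1015 there, against 1136 and 1093 in vector replicates 2 and 3. Nr1h4 was at 0, 19 and 0 counts with NR4A1 and at 2, 0 and 0 with vector, with the 19 counts in NR4A1 replicate 2. Neither value was seen again in another library of its group. Pgr was at 5 counts in NR4A1 replicate 2 and at 2 or fewer elsewhere.

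Genes that work with the receptors were counted in the same fit. Of the RXR partners, Rxra (log2 fold change 0.043, SE 0.094) and Rxrb (-0.074, SE 0.11) overlapped between the groups, and Rxrg was at 0 counts in every library. Of 7 steroid receptor chaperones and cochaperones, all tested, 0 were called and none had separate groups, with log2 fold changes from -0.077 (Hsp90ab1) to 0.091 (Dnaja1).

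Of 24 coactivators and corepressors, all tested, 0 were called, 2 were higher at an unadjusted p under 0.05 and 0 lower (4.02% and 2.44% of all tested genes, here and for the lists that follow). The median log2 fold change was 0.044. That median was 0.12 without NR4A1 replicate 2 and 0.0525 without both libraries numbered 2. The 2 with the smallest p were Nrip1 (RIP140), a ligand-dependent corepressor, and Ncoa7. Nrip1 was at 938, 654 and 877 counts with NR4A1 and at 695, 483 and 593 with vector, and its groups overlapped (log2 fold change 0.58, SE 0.20). Ncoa7 was at 131, 114 and 149 counts against 97, 98 and 104, with separate groups and a log2 fold change of 0.48 (SE 0.17, adjusted p = 0.6646 for both by edgeR).

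The genes that make, carry or break down retinoic acid and thyroid hormone came nearest to the threshold. Of 18 such genes 10 were tested, 0 were called, 4 were higher at an unadjusted p under 0.05 (background 4.02%) and 0 lower (2.44%). The median log2 fold change was 0.51, but 0.11 without NR4A1 replicate 2, with 5 of the 10 above 0. Without both libraries numbered 2 the median was 0.195. Aldh1a2, which makes retinoic acid from retinal, was at 881, 1019 and 1213 counts with NR4A1 and at 713, 661 and 747 with vector. Its groups were separate, with a log2 fold change of 0.63 (SE 0.095) and an adjusted p of 0.0725 (edgeR quasi-likelihood test), while DESeq2 gave 2.29e-05 at the same difference, which is under 2-fold. Rdh10, which makes retinal from retinol, was at 170, 202 and 230 counts against 146, 123 and 126, also with separate groups (log2 fold change 0.68, SE 0.14, adjusted p = 0.2014 by edgeR and 0.0227 by DESeq2).

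Cyp26b1, which breaks down retinoic acid and is itself a known target of its receptors, was at 91, 202 and 131 counts with NR4A1 and at 64, 43 and 58 with vector. The groups were separate, with the highest count in NR4A1 replicate 2, and the log2 fold change was 1.43 (SE 0.29, adjusted p = 0.2143 by edgeR). Without NR4A1 replicate 2 it was 1.11 (adjusted p = 0.1724). DESeq2 called Cyp26b1, at an adjusted p of 0.0017. Dhrs3, which returns retinal to retinol, had overlapping groups (log2 fold change 0.33, SE 0.13, unadjusted p = 0.0401). Aldh1a3, which also makes retinoic acid, overlapped between the groups (log2 fold change -0.10, SE 0.086).

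**Figure D5:**
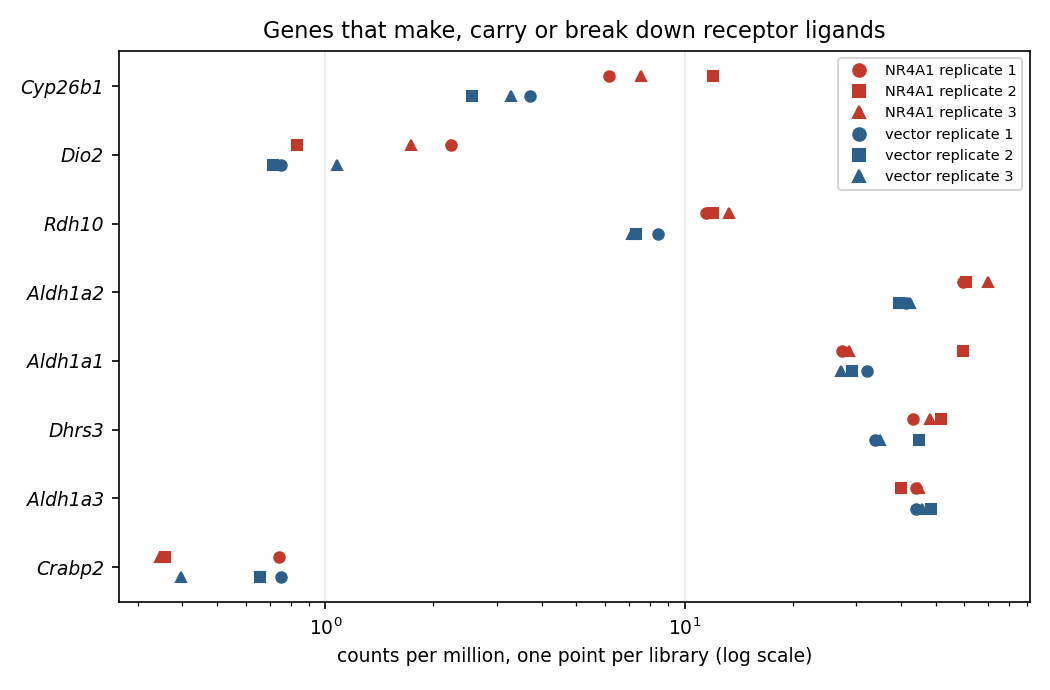
CPM (log scale) in each library for 8 of the 10 tested genes that make, carry or break down receptor ligands, with NR4A1 libraries in red and vector libraries in blue. Aldh1a2, Rdh10 and Cyp26b1 are higher in all 3 NR4A1 libraries than in any vector library.

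Known target genes of the receptors were looked at family by family, 58 in all, of which 37 were tested and 0 called. Rarb, Nr0b2 and Pgr on these lists are themselves among the receptors. Leaving them out gave 55 targets, of which 35 were tested and 0 called. Of the 9 retinoic acid receptor targets 7 were tested, with a median log2 fold change of 0.33. That median was 0.031 without NR4A1 replicate 2 and 0.024 without both libraries numbered 2. Higher at an unadjusted p under 0.05 were 3 of the 7, Rarb, Cyp26b1 and Dhrs3 (background 4.02%). Rarb was already counted among the receptors, and Cyp26b1 and Dhrs3 among the genes that make, carry or break down retinoic acid. These 3 genes are therefore not separate evidence. Of the 11 PPAR targets 7 were tested, and 3 were higher (background 4.02%) and 0 lower (2.44%) at an unadjusted p under 0.05. Their log2 fold changes went both ways, 4 above 0 and 3 below, with a median of 0.13. That median was 0.16 without NR4A1 replicate 2 and 0.064 without both libraries numbered 2. Groups were separate for 3 higher genes (background 6.69%) and 2 lower genes (6.22%). Cd36, a fatty acid transporter, was at 65, 115 and 75 counts with NR4A1 and at 46, 25 and 34 with vector. Its groups were separate (log2 fold change 1.35, SE 0.30, adjusted p = 0.292 by edgeR), and DESeq2 called it at an adjusted p of 0.0161. Cpt1a, which admits fatty acids into mitochondria, had a log2 fold change of 0.22 (SE 0.088) with separate groups. The fat cell gene Fabp4 was not tested, at 560 counts in NR4A1 replicate 2 and at 0 to 23 elsewhere.

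Of the 8 LXR targets 7 were tested, with a median log2 fold change of 0.083. That median was -0.083 without NR4A1 replicate 2 and -0.063 without both libraries numbered 2. Srebf1, the regulator of fatty acid synthesis, was at 1727, 2120 and 2263 counts with NR4A1 and at 2469, 2330 and 2652 with vector, with separate groups and a log2 fold change of -0.21 (SE 0.075, adjusted p = 0.6727 by edgeR), while the cholesterol exporter Abca1 overlapped (0.14, SE 0.14). Of the 5 thyroid hormone targets 3 were tested. Hr, a corepressor, was lower with separate groups (log2 fold change -0.20, SE 0.082, background 6.22%). Klf9 was higher with separate groups (0.21, SE 0.089, background 6.69%), and Me1 overlapped. All 11 glucocorticoid receptor targets were tested, and 2 were higher (background 4.02%) and 0 lower (2.44%) at an unadjusted p under 0.05. Groups were separate for 1 higher gene (background 6.69%) and 1 lower gene (6.22%). The higher gene was Klf9, which was also 1 of the 2 higher at that unadjusted p. Klf9 is on the thyroid hormone list as well, so it is not separate evidence for each receptor. The median log2 fold change of the 11 was 0.38. That median was 0.0085 without NR4A1 replicate 2 and -0.129 without both libraries numbered 2. The largest value, 3.86 for the kinase gene Sgk1, came from 1861 counts in NR4A1 replicate 2 against 30 to 71 in the other libraries, and classical targets Fkbp5 (-0.017) and Tsc22d3 (0.12) overlapped between the groups.

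The other families had few measurable targets. Of 5 FXR targets only Nr0b2 was tested, and of 3 vitamin D receptor targets none, with Cyp24a1, Trpv6 and S100g at 0 counts in all libraries. Of 4 PXR and CAR targets only Abcb1a was tested (log2 fold change 1.52, SE 0.90), and of 3 oestrogen receptor targets only Cxcl12 (2.27, SE 1.76), which was at 199 counts in NR4A1 replicate 2. Without that library the values were 0.76 for Abcb1a and -0.78 for Cxcl12.

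Of 15 circadian clock genes 14 were tested and 0 called, with 1 higher and 2 lower at an unadjusted p under 0.05 (background 4.02% and 2.44%) and a median log2 fold change of -0.053. Nfil3, a repressor that REV-ERB receptors are known to act on, was at 283, 332 and 386 counts with NR4A1 and at 261, 256 and 244 with vector. Its groups were separate (log2 fold change 0.47, SE 0.10, adjusted p = 0.2667 by edgeR). Ciart, a clock repressor, was at 40, 31 and 32 counts against 53, 54 and 62, the other way, with a log2 fold change of -0.62 (SE 0.24, adjusted p = 0.7226 by edgeR). Arntl (BMAL1), which REV-ERB receptors repress and ROR receptors activate, overlapped between the groups (log2 fold change -0.039, SE 0.19).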

How the data were processed

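RNA was sequenced from MLE-12 cells, 3 libraries per group, grouped from the labels. The authors deposited 1 table with read counts per gene and library, which are not normalised, and with FPKM values scaled by library total and gene length. The kit is strand-specific per the study's methods. The submitters' processing notes name HISAT2 2.0.4 and GRCm38 p4, and the counting program and its strand setting are not given in the sources used here. TMM factors, filterByExpr and the quasi-likelihood test were run on the counts with edgeR 4.0.16 (R 4.3.3), across all 12941 genes kept, and tested on simulated data. CPM values are counts divided by library totals times TMM factors. A gene was called at a Benjamini-Hochberg adjusted p under 0.05 and at least 2-fold. Alternatives used DESeq2 1.42.0, limma 3.58.1 on log2(FPKM + 1) with genes of mean FPKM 1 or more, other scalings and filters, the replicate block, and each library left out. Values of each library are given for receptors with separate groups and for any in which 1 library holds most counts. Group means and SDs are given for the 10 with the highest FPKM. From other lists, genes of small p are named beside genes picked by size of difference or known role. The 2 genes of smallest p are not named for every list. Gene overlaps came from GENCODE M21. The receptors and lists were chosen with earlier results of these data known. Single values of 2 ligand-handling genes are not reported here.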

Additional observations from a re-analysis of the deposited data

How the results depend on the processing

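The count of receptors called stayed at 0 in each direction under every alternative run. The counts of coregulators and clock genes called also stayed at 0 under the alternatives run for them, including the fit without both libraries numbered 2. DESeq2 called 2 receptor targets (Cyp26b1 and Cd36) and 1 ligand-handling gene (Cyp26b1), and an unadjusted p with 2-fold called 3 and 1. The cause was not tested. Of 331 single-receptor values under the alternatives 299 kept their direction, 0 were called and 32 changed sign, in 13 receptors whose main log2 fold change was at most 0.152 in size. Without TMM factors Rarg was -0.0049, Rora -0.012 and Nr2f2 -0.0061. With limma on FPKM Rarg was -0.0091, Rora -0.0085 and Nr2f2 -0.013. Without both libraries numbered 2, an alternative added after seeing the data, Rarg was -0.050, Nr1d1 0.018, Rora -0.012 and Nr3c1 0.014. With each library left out in turn, log2 fold changes ran from -0.062 to 0.083 for Rarg, -0.12 to 0.15 for Nr1d1, -0.012 to 0.28 for Nr1d2, -0.16 to 0.15 for Rora, -0.067 to 0.27 for Rorb, -0.11 to 0.0054 for Nr1h2, -0.25 to 0.037 for Nr2c1, -0.034 to 0.23 for Nr2c2, -0.075 to 0.10 for Nr2f2, -0.049 to 0.26 for Nr2f6, -0.035 to 0.27 for Esr1, -0.25 to 0.22 for Nr3c1 and -0.27 to 0.076 for Nr3c2. Thrb ran from 0.81 to 1.17, Rarb from 0.34 to 0.43, Thra from -0.31 to -0.17 and Rara from -0.31 to -0.21. Single libraries moved 4 others by over 1.5 times without a call: Nr0b2 ran from -1.14 to -0.31, Vdr from -0.60 to -0.17, Ppard from -0.14 to -0.0055 and Nr6a1 from 0.040 to 0.30. List medians without NR4A1 replicate 2, or without both libraries numbered 2, were added after seeing the data.

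Replicate numbers were shared between the groups. The deviations of same-numbered libraries correlated at 0.0203, 0.0461 and 0.178 across genes, not all above 0.1, so the numbers were not taken as pairs. These correlations do not show that same-numbered libraries were independent. Both libraries numbered 2 were lowest in their groups for 22.6% of all tested genes and highest for 22.4%. The share lowest was 6.51% for genes up to 2367 bases and 51.2% for genes of 7517 bases or more. With the replicate block 0 receptors were called and their median log2 fold change was -0.0064. The 14 receptors without a test had too few counts for the filter at this depth.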
